A study of Homo sapiens with 4 samples.

Results

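Drug-free U87 cells in a 21-day culture were compared with drug-free U87 cells in a 24-hour culture. The comparison used 2 of the 4 arrays of the study, the array labelled crizotinib-sensitive and the array labelled 24h vehicle, and every feature of the table that had a gene symbol, 22458 of 23786. U87 is an established human glioblastoma cell line, and crizotinib is an inhibitor of the MET, ALK and ROS1 receptor tyrosine kinases. The study set short and long crizotinib exposure against drug-free controls, with 1 Affymetrix array for each of 4 conditions. Cells of all 4 conditions were grown in DMEM with fetal bovine serum, and RNA was taken at the same time with a single kit, per the labels.

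The 24-hour vehicle array came from cells kept without drug for 24 hours. The crizotinib-sensitive array is called the 21-day control here: per the series design its cells grew in the same medium without crizotinib while the resistant arm was exposed for 21 days. The treatment protocol gives both 21-day arms a single culture name, so the drug-free reading of the crizotinib-sensitive array rests on the design text and on the wording that it had the same growth condition without the drug. The remaining arrays, 2 µM crizotinib for 24 hours and 1 µM crizotinib for 21 days (labelled crizotinib-resistant), share no array with the drug-free pair and are given beside it. The labels do not say whether the drug-free cultures started from the same passage or differed in density at harvest. With 1 array per condition no difference within the drug-free pair has a replicate error, and none was tested; sizes are given as log2 differences, 21-day minus 24-hour.

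Adherent glioblastoma lines such as U87 resemble the mesenchymal type of glioma more than the neural progenitor type, and they secrete proteases, matrix proteins and cytokines. In such cells NF-kB factors drive inflammatory cytokine and chemokine genes. SREBP factors drive the genes of sterol and unsaturated fatty acid synthesis when membrane sterol is low, and HIF factors drive glycolytic and hypoxia genes when oxygen is low.

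Promoter stretches of 5 inflammatory genes that stood higher in the 21-day control are shown, to set a known factor's motif beside their values. Each is the 250 bases upstream of the annotated start, from RefSeq on GRCh38.p14, written 5′ to 3′ on the strand of the gene. Capitals mark GGNNTTTCC, an NF-kB type motif, searched on both strands.
CXCL8, chr4:73740319-73740568, plus strand: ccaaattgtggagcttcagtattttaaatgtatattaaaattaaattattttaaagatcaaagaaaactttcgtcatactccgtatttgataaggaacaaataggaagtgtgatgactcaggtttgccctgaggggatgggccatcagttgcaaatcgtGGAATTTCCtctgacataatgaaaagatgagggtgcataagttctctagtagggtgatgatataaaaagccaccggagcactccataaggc
CXCL1, chr4:73869143-73869392, plus strand: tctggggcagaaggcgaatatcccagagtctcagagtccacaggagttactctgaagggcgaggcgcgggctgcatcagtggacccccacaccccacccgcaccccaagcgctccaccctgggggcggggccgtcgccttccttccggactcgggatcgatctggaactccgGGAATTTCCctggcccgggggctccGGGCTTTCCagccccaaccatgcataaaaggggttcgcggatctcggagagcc
CXCL3, chr4:74038690-74038939, minus strand: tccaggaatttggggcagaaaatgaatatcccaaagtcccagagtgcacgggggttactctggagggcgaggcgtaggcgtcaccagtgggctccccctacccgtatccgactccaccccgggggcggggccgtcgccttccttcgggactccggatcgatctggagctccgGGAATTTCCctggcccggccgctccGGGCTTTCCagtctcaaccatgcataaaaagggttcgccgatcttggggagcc
TNFAIP3, chr6:137867009-137867258, plus strand: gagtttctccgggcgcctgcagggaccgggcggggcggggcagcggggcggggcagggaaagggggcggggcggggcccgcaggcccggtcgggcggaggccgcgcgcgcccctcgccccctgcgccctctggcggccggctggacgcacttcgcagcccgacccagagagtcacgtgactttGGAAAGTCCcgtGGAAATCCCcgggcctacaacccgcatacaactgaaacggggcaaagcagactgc
IL1B, chr2:112836780-112837029, minus strand: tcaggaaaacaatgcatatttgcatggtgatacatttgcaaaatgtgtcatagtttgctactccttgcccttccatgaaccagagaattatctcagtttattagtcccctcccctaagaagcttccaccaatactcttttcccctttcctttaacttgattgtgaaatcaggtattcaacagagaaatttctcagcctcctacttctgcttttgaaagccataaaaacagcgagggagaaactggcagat
The motif began 91 bases before the start of CXCL8, and at 78 and 53 bases before the starts of CXCL1 and CXCL3. The IL1B window held none. Of the 20 NF-kB list genes with a window, 13 held the motif (65%), against 6.69% of 27305 genes. Of the 8 list genes with a window that were at least 2-fold higher as measured, 6 held it. The list was drawn up as NF-kB genes, so its motif share describes the list and not these cultures. The matches describe letters in a window and no binding was measured.

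Array values are log2 intensities after RMA, and ran from 1.07 to 12.56, with array medians between 4.92 and 4.98. A probe set's brightness depends on its probes as well as on its transcript, so the order of high values is an order of signal and not of transcript abundance. The brightest named protein-coding genes in the drug-free arrays were housekeeping, cytoskeletal and matrix genes. Values of a gene are given in the order 24-hour vehicle, 24-hour crizotinib, 21-day control and 21-day crizotinib. MT2A, a metal-binding metallothionein, had 12.39, 12.17, 12.56 and 12.51. VIM, the intermediate filament vimentin of mesenchymal cells, had 12.26 in the 24-hour vehicle and 12.18 in the 21-day control. Both were near the top of the scale in the drug-free arrays. The 20 highest means also held the ribosomal protein genes RPL24, RPS21 and RPL8, the tubulin genes TUBB and TUBB4B, GAPDH, EEF2, EEF1G, the chaperones HSP90B1, HSPA8 and CALR, ACTN4, RAB7A, DCBLD2 and H2AC20. Secreted proteins among them were the protease inhibitor TFPI2 (11.74, 11.02, 12.18 and 12.07), fibronectin FN1 (11.76, 11.91, 11.38 and 12.01) and TGFBI (11.57, 11.38, 11.56 and 11.85). MET, the growth factor receptor that crizotinib inhibits, had 10.17, 9.88, 10.32 and 9.94, a difference between the drug-free arrays well within 1.5-fold.

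Olfactory receptor genes, which are used in nasal neurons, gave the level of unexpressed genes. Their 374 probe sets had a median of 2.73 in the 24-hour vehicle and 2.71 in the 21-day control, and their 95th percentiles were 4.64 and 4.51. By this bound 12158 named features (54.1%) were at or above it in both drug-free arrays, 9232 (41.1%) were below it in both and 1068 lay on different sides. Of 17649 protein-coding features, 11002 were at or above it in both.

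Genes of 9p21 were among those below the bound. A list of 7 genes around CDKN2A, which is not every gene of the region, had all 7 below it in both drug-free arrays. They include the tumour suppressor CDKN2A (3.84, 3.69, 3.82 and 3.67), CDKN2B (3.93, 4.27, 4.07 and 3.73) and the metabolic enzyme gene MTAP (2.91, 3.05, 3.10 and 3.00). NF1, the RAS inhibitor neurofibromin, was above it at 8.17, 8.73, 7.80 and 7.85. TERT, the catalytic subunit of telomerase, was just above it in both drug-free arrays, at 5.13 and 5.01.

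The glioblastoma label was set against marker lists. None of the 15 measured mesenchymal glioma genes was below the bound in both drug-free arrays, with CD44, a hyaluronan receptor, at 11.26 and 11.08. By contrast 12 of 17 stem and proneural glioma genes were below it in both, with the neural progenitor factor SOX2 at 3.50 and 3.46 and the oligodendrocyte lineage factor OLIG2 at 4.43 and 4.39. In the same list 4 genes were at or above it in both. They include NES, the neural progenitor filament nestin, at 5.26 in the 21-day control with a difference of -0.75, and KLF4 at 4.96 and 4.96. Astrocyte markers were split, with 6 of 12 below. GFAP, the astrocyte intermediate filament, had 4.91, 4.50, 4.80 and 4.74, near the bound, while the astrocyte calcium binding protein S100B had 2.96, 2.66, 2.47 and 2.84. GJA1, the gap junction protein connexin 43, was high at 9.23 and 8.84. SOX9, a glial and cartilage transcription factor, was the astrocyte marker that differed by over 2-fold, at 8.14, 8.31, 6.80 and 6.52.

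Most markers of other cell types were below the bound in both drug-free arrays, except those of fibroblasts, pericytes and smooth muscle, and erythroid cells. In these lists 8 of 14, 7 of 12 and 4 of 7 markers were at or above it in both. Of all named features 41.1% were below it in both. The numbers below the bound in both were 10 of 14 for neurons, 8 of 11 for oligodendrocytes, 12 of 14 for leukocytes and microglia, 6 of 10 for endothelium, 10 of 15 for epithelium, 6 of 14 for fibroblasts, 3 of 12 for pericytes and smooth muscle, 5 of 6 for melanocytes, 6 of 9 for skeletal muscle, 8 of 9 for hepatocytes, 3 of 7 for erythroid cells and 9 of 10 for germ cells. PTPRC, the pan-leukocyte antigen CD45, had 1.94 and 2.09, at the level of the olfactory receptor genes. The exceptions in the leukocyte list were CD68, a lysosomal protein (11.11 and 10.79), and CSF1R, a receptor of macrophages (5.55 and 5.64). Among fibroblast markers the collagen genes COL1A1 (9.24 and 9.54) and COL1A2 (9.21 and 10.16) were high, and DCN, decorin, was low at 2.88 and 3.27. In bulk RNA fewer cells of a kind and less RNA per cell cannot be told apart.

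The drug-free arrays were alike at most genes. Across the 22458 named features Pearson's r was 0.985, given as a description across features. The size rule was applied where the higher of the drug-free arrays reached 4.96, the median over the whole table, which 11824 features did. Of these 10479 (88.6%) lay within 1.5-fold. The 21-day control was higher by 2-fold or more at 195 features, a background of 1.65%, and lower by 2-fold or more at 157, a background of 1.33%. The rule in either direction took 2.98%. A 4-fold difference was reached by 24 higher and 20 lower features. The difference had a median of 0.03 and an SD of 0.42 over the 11824 features, against an SD of 0.71 for the arrays with crizotinib (21-day minus 24-hour). At the edge of the rule, MINAR1 was just inside at 1.00 and VEGFC, a lymphatic growth factor, just outside at 0.996, and DANCR at -0.995 was outside on the other side.

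**Figure D1:**
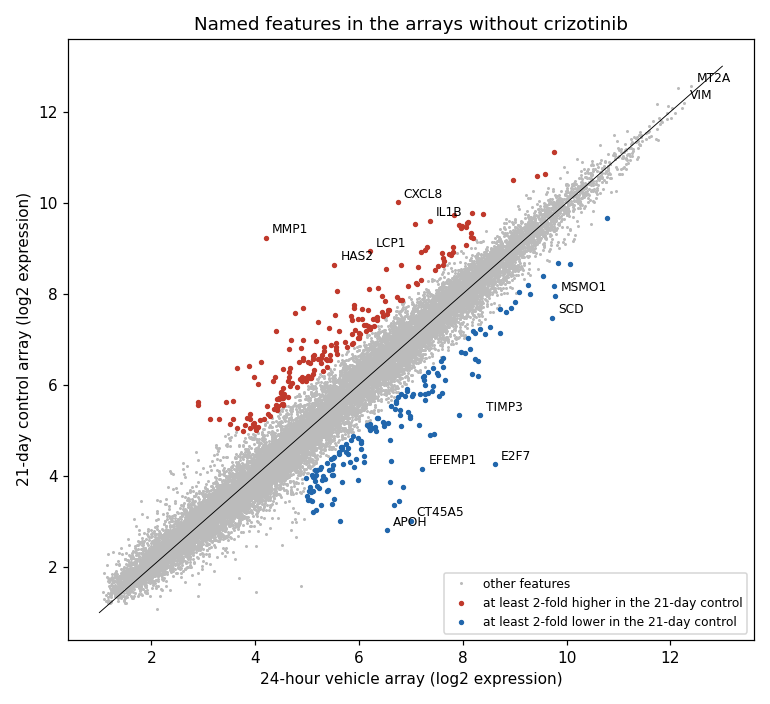
The 24-hour vehicle value (horizontal axis, log2) of each named feature is plotted against its 21-day control value (vertical axis, log2), with the features at least 2-fold apart marked. Most points follow the diagonal (r 0.985), with MMP1 and CXCL8 far above it and E2F7, CT45A5 and APOH far below.

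The 15 highest differences as measured included a collagenase, a chemokine and a matrix synthase. In 7 of the 15 highest and 10 of the 15 lowest differences the dimmer drug-free array was below its olfactory bound. Their folds are given as lower bounds, taken against the bound, and their order is not an order of fold. MMP1, interstitial collagenase, which cuts fibrillar collagen, had 4.21, 3.69, 9.23 and 10.57. It was below the olfactory bound in both 24-hour arrays and in the upper part of the scale in both 21-day arrays, a measured difference of 5.02 in the drug-free pair, or at least 24.0-fold. CXCL8, the neutrophil chemokine interleukin-8, had 6.75, 6.62, 10.01 and 11.36, 9.60-fold higher in the drug-free pair. HAS2, a hyaluronan synthase of the plasma membrane, had 5.52, 4.06, 8.64 and 9.21, 8.67-fold higher. All 3 were higher in each 21-day array than in either 24-hour array.

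Other secreted or matrix-associated genes among the 15 highest differences were EMILIN2, an elastin-interface glycoprotein (4.91, 5.46, 7.69 and 8.50), and ESM1, the secreted proteoglycan endocan (3.65, 3.43, 6.36 and 6.42). SRGN, the granule proteoglycan serglycin, had 7.09, 7.41, 9.52 and 9.32. In these genes, too, the 2 culture durations did not overlap. The 15 were picked for their drug-free difference, so that pair could not overlap and only the crizotinib arrays were free to. The share of all features without overlap was not counted. Separation of the durations, in the genes above and below, therefore has no background beside it.

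Of the other genes among the 15, LCP1, the actin bundling protein L-plastin of blood cells, had 6.21, 6.31, 8.94 and 8.43. SP140, a nuclear body protein of lymphoid cells, had 4.77, 4.51, 7.57 and 6.70. ELMO1, a partner of the DOCK activators of RAC, had 4.12, 4.90, 6.51 and 5.89. All 3 were higher in both 21-day arrays. Beside them the 14 measured leukocyte and microglia markers had a summed linear level of 2380 in the 24-hour vehicle and 1931 in the 21-day control, most of it CD68, with a median difference of -0.0049 and none of the 14 at least 2-fold apart. PTPRC was at 1.94 and 2.09.

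The remaining genes of the 15 were IL1B, described below, PDE10A, a cyclic nucleotide phosphodiesterase (2.89, 3.85, 5.62 and 5.09), GSTM5, a glutathione transferase (3.87, 4.35, 6.41 and 5.81), TMEM156 (4.70, 2.90, 6.99 and 5.85), TRIML2 (4.41, 4.78, 7.19 and 4.80) and CDK15 (2.90, 5.01, 5.56 and 3.64). Against the olfactory bound PDE10A was at least 1.98-fold and CDK15 at least 1.89-fold higher, short of 2-fold. TRIML2 and CDK15 differ from the rest, since their 21-day crizotinib value was near or below a 24-hour value. ROS1, a receptor tyrosine kinase that crizotinib also inhibits, had 4.65, 5.04, 6.79 and 6.71, higher in both 21-day arrays.

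**Figure D2:**
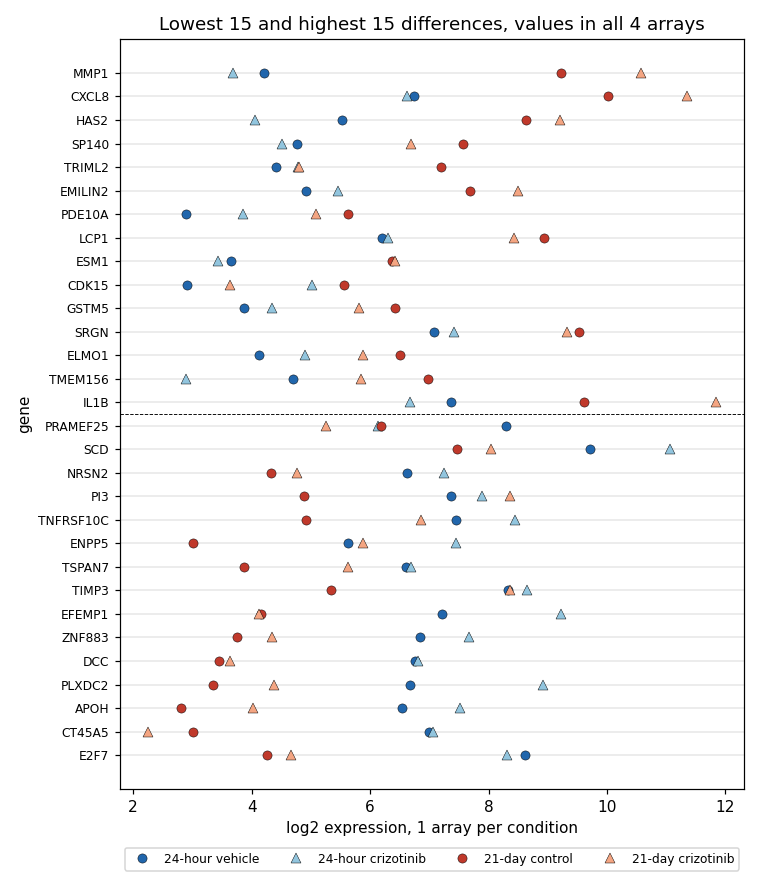
The log2 values of the 15 highest and the 15 lowest differences are plotted in all 4 arrays, with 1 row per gene and 1 marker per array. MMP1 spans 4.21 to 9.23 between the drug-free arrays and E2F7 8.61 to 4.25, and for most genes the 21-day crizotinib marker lies on the side of the 21-day control.

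Most of the NF-kB cytokine and chemokine list was higher. Of 24 measured genes 9 were at least 2-fold higher as measured in the 21-day control, none was at least 2-fold lower and 21 were above 0. The background of 2-fold higher features was 1.65%. Of 11362 features with a mean over the 4 arrays at or above 4.96, 45.8% were below 0. The list's median was 0.68, against 0.003 over all named features. Over members past the level rule it was 0.80, against 0.03 over all features past it. Among the chemokines that draw neutrophils, CXCL1 had 3.14, 3.31, 5.26 and 7.04 and CXCL3 had 3.31, 3.38, 5.26 and 7.58. Both were below the bound at 24 hours in either condition and above it at 21 days. Both are among the 9 and passed the level rule through the 21-day control alone. Against the 24-hour vehicle bound of 4.64 their drug-free difference falls short of 2-fold. CXCL5 had 4.65, 4.66, 6.16 and 8.72.

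Among the cytokines, IL1B had 7.37, 6.67, 9.61 and 11.83, 4.71-fold higher in the drug-free pair, and IL1A had 4.45, 4.15, 5.71 and 7.33. CSF3, the granulocyte growth factor, had 7.82, 7.16, 9.73 and 10.63. The feedback inhibitor TNFAIP3 had 6.37, 6.48, 8.13 and 9.14, and the nuclear IkB protein NFKBIZ had 6.58, 6.28, 7.64 and 8.0. In all 5 the 21-day crizotinib array stood above the 21-day control. The 3 members below 0 were CCL2, the monocyte chemokine, at -0.82, the hyaluronan binding protein TNFAIP6 at -0.92 and IL11 at -0.03. In the arrays with crizotinib 20 of the 24 were at least 2-fold higher, against a background of 5.46%.

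The sterol pathway lay in the other direction. Of 19 measured genes of cholesterol synthesis and uptake, 9 had a 2-fold lower value in the 21-day control, none a 2-fold higher one and 18 were below 0, with a median of -0.83. The background of 2-fold lower features was 1.33%, and 45.8% of the 11362 features were below 0. HMGCS1, the synthase ahead of the rate-limiting reductase, had 7.40, 10.23, 5.86 and 6.17. IDI1, the isopentenyl isomerase, had 6.98, 8.98, 5.28 and 5.81, and MSMO1, a sterol oxidase, had 9.77, 11.41, 7.96 and 8.41. For each the 24-hour crizotinib array was the highest of the 4 and the 21-day control the lowest.

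The regulators of the pathway were in the same group. SREBF2, the transcription factor itself, had 7.43, 8.43, 5.97 and 6.66. INSIG1, which holds the SREBP complex in the endoplasmic reticulum, had 9.76, 11.21, 8.17 and 9.33, and STARD4, a sterol carrier, had 8.17, 9.33, 6.24 and 7.43. The other genes at least 2-fold lower were DHCR7 at -1.19, MVK at -1.03 and CYP51A1 at -1.02. EBP, a sterol isomerase, was the only member above 0, at 0.02. A sterol response type motif, TCACNCCAC on either strand, was found in the window of 1 of 17 list genes (5.88%), SREBF2, against 1.09% of all genes. Of the 9 list genes at least 2-fold lower, SREBF2 alone held it. The list was drawn up as genes of this pathway, so the share describes the list, and it rests on 1 gene.

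Genes of fatty acid synthesis were lower by less. Of 14 measured genes 2 were at least 2-fold lower (background 1.33%), 12 were below 0 (background 45.8%) and the median was -0.42. SCD, the desaturase that makes oleate, had 9.72, 11.07, 7.47 and 8.05. FADS2, a desaturase of polyunsaturated fatty acids, had 8.11, 9.85, 7.02 and 6.81. Both were higher in each 24-hour array than in either 21-day array. Targets of the sterol-sensing receptor LXR had a median of 0.13 over 9 genes, with none 2-fold apart.

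Hypoxia targets were mostly below 0 in the drug-free pair, 13 of 19, against 45.8% of the 11362 features. Of the hypoxia targets 3 past the level rule were lower by 2-fold or more, against a background of 1.33%. EGLN3, an oxygen-sensing hydroxylase gene below the olfactory bound in both drug-free arrays (3.97 and 2.90), was lower by 2-fold too. The list median was -0.42, or -0.17 over the 17 members past the level rule. NDRG1 had 10.06, 10.15, 8.66 and 10.45, and BNIP3, a mitophagy receptor, had 9.55, 9.27, 8.39 and 9.93. DDIT4, an inhibitor of mTORC1, had 7.18, 8.46, 5.81 and 7.62. In NDRG1, BNIP3 and DDIT4 the 21-day control was the lowest of the 4 arrays. VEGFA, the angiogenic factor, had 10.01 and 10.41 in the drug-free arrays. The arrays with crizotinib had a list median of 0.23, with 4 genes past the level rule at least 2-fold higher and none lower. EGLN3, short of that rule, was lower by 2-fold or more there too (4.37 and 2.90, a difference of -1.47).

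Among 20 glycolysis genes 2 were at least 2-fold lower, against a background of 1.33%, and the median was -0.18. PFKFB4, which makes the activator of phosphofructokinase, had 8.04, 7.89, 6.70 and 7.52. ALDOC, an aldolase, had 7.02, 7.93, 5.75 and 6.84. The core enzymes differed little, with PKM at 11.45 and 11.37. Serine, one-carbon and ATF4 genes had a median of 0.27 over 24 genes, and the background of 2-fold higher features was 1.65%. Of the 24 genes 3 were at least 2-fold higher, namely the mitochondrial folate enzyme ALDH1L2 (4.93, 5.63, 6.99 and 7.51), asparagine synthetase ASNS (6.35, 6.47, 7.43 and 6.97) and the amino acid transporter SLC7A5 (8.20, 7.34, 9.22 and 8.06).

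Cell cycle genes were near level in the drug-free pair. None of the 37 replication and G1/S genes was at least 2-fold apart, although 31 were above 0, with a median of 0.25 and the highest value in the cyclin gene CCNE1 at 0.91. Of the 11362 features 45.8% were below 0. None of 35 G2/M and mitosis genes was at least 2-fold apart, and their median was 0.04. In the arrays with crizotinib the G2/M list had a median of -1.66, with 28 of 35 at least 2-fold lower against a background of 5.96%.

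**Figure D3:**
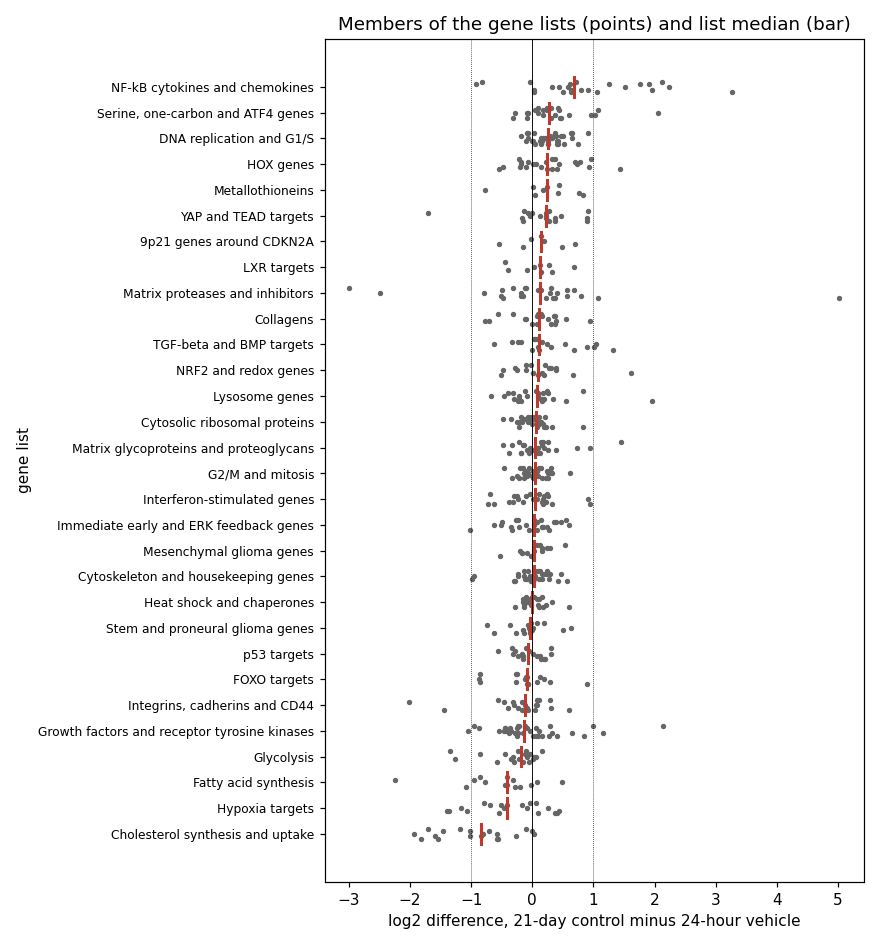
The log2 difference, 21-day control minus 24-hour vehicle, of each measured member is plotted by gene list, with the list median marked. The NF-kB list lies to the right (median 0.68), and the cholesterol list (median -0.83) and the fatty acid list (-0.42) lie to the left. The hypoxia list has a median of -0.42 over all members and -0.17 over those past the level rule.

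The lowest differences included a cell cycle repressor, a cancer-testis antigen and a plasma protein. E2F7, an atypical E2F factor that represses E2F target genes, had 8.61, 8.31, 4.25 and 4.67, at least 17.2-fold lower in the drug-free pair. CT45A5, a cancer-testis antigen gene on chromosome X, had 6.99, 7.06, 3.01 and 2.26, at least 5.60-fold lower. APOH, a plasma protein made in liver that binds phospholipid, had 6.53, 7.52, 2.80 and 4.02, at least 4.07-fold lower. For each the values at 21 days were near or below the olfactory bound and those at 24 hours were well above it. The nearest measured genes on either side of E2F7 on chromosome 12, the LIM protein gene CSRP2 (7.37 and 7.65) and the neuron navigator gene NAV3 (7.66 and 7.97), chosen for their place, had differences of 0.28 and 0.31. One place further out ZDHHC17 had -0.10 and SYT1, a synaptic vesicle calcium sensor, had 5.74, 6.83, 4.52 and 4.44, a difference of -1.22.

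DCC, the netrin receptor on chromosome 18, had 6.76, 6.81, 3.45 and 3.64, at least 4.77-fold lower. PLXDC2, a plexin-domain membrane protein, had 6.68, 8.92, 3.35 and 4.38. EFEMP1, the matrix protein fibulin-3, had 7.22, 9.23, 4.16 and 4.12, and ZNF883, a zinc finger gene, had 6.84, 7.67, 3.75 and 4.34. All 4 were high in both 24-hour arrays and below the bound in both 21-day arrays. CDH11, a mesenchymal cadherin, had 5.52, 5.06, 3.50 and 4.24, and NRSN2 had 6.62, 7.25, 4.32 and 4.76.

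In other genes of the 15 the 21-day control was the lowest of the 4 arrays and the 21-day crizotinib array was well above it. TIMP3, a matrix-bound inhibitor of metalloproteases, had 8.33, 8.65, 5.33 and 8.37. PI3, the elastase inhibitor elafin, had 7.37, 7.88, 4.89 and 8.36. TNFRSF10C, a decoy receptor for TRAIL, had 7.45, 8.44, 4.92 and 6.86. The 21-day control was also the lowest in TSPAN7 (6.60, 6.70, 3.87 and 5.63) and ENPP5 (5.63, 7.46, 3.00 and 5.88). In the crizotinib pair TIMP3 differed by -0.29 and PI3 by 0.48, while TNFRSF10C (-1.59), ENPP5 (-1.58) and TSPAN7 (-1.07) were lower at 21 days by 2-fold or more there too. PRAMEF25 had 8.30, 6.14, 6.19 and 5.25, with the 24-hour vehicle alone high.

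Sorting every named feature by which arrays were high gave counts for these patterns. The rule asked for a gap of at least 2-fold, high arrays at or above 4.96 and low arrays below 4.56, the olfactory bound over all 4 arrays. High in both 21-day arrays and low in both 24-hour arrays were 17 features, 13 of them protein-coding, among them KCNN3, a calcium-activated potassium channel, FLI1, an ETS factor, ANXA10 and the chemokine CCL26. High in both 24-hour and low in both 21-day arrays were 20, all protein-coding, among them GABRA2, a GABA receptor subunit, SYT1 and PYCARD, the inflammasome adaptor. Low in the 21-day control alone were 11, and high in it alone were 4. Low and high in the 24-hour vehicle alone were 5 and 3. Without the limit on low levels the counts were 82, 48, 31, 17, 15 and 6 in the same order. These genes were chosen after their values were seen.

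Matrix, adhesion and signalling lists had few genes past the size rule, whose backgrounds were 1.65% higher and 1.33% lower. Of 26 matrix proteases and inhibitors, ADAMTS1 (8.16, 7.03, 9.24 and 9.32) joined MMP1 on the higher side and TIMP3 and PI3 were lower. The gelatinase MMP2 had 11.62 and 11.48. Of 28 matrix glycoproteins and proteoglycans the laminin chain LAMA4 was higher (5.98, 6.49, 7.44 and 8.70). No collagen of 20 was 2-fold apart. Of the 14 fibroblast markers none was 2-fold apart, and their summed linear level was 2462 in the 24-hour vehicle and 3061 in the 21-day control; its part in the matrix values was not tested.

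Of 36 growth factors and receptor tyrosine kinases, ROS1 and the EGFR ligand EREG (9.42, 8.93, 10.59 and 10.95) were higher and TGFA, another EGFR ligand, was lower (7.44, 6.73, 6.38 and 6.70). The TGF-beta and BMP targets had 3 of 20 genes higher, among them BMP2 (4.71, 5.28, 6.04 and 7.80) and the BMP antagonist GREM1 (9.59, 9.30, 10.63 and 11.22). No gene past the level rule was 2-fold apart among interferon-stimulated genes (13 of 24 past it), ERK feedback genes (23 of 25), p53 targets (18 of 18) or FOXO targets (13 of 18). The same held for metallothioneins (6 of 9), heat shock genes (18 of 21), ribosomal proteins (27 of 30) and cytoskeletal and housekeeping genes (31 of 32). Below that rule the ERK feedback gene SPRY1 had 4.27 and 3.25. The medians of these lists ran from -0.09 to 0.23. Of 21 integrins and cadherins PCDH18 (6.04, 8.47, 4.59 and 4.44) was lower beside CDH11. Single genes were past the rule in the NRF2 list (the efflux pump ABCC2, at 6.06, 7.11, 7.67 and 7.78), the lysosome list (the proton pump subunit ATP6V0D2, at 4.06, 6.54, 6.02 and 7.77) and the YAP and TEAD list (the Hippo scaffold WWC1, at 5.90, 5.57, 4.20 and 4.87). None of 24 HOX genes was past both rules, with a median of 0.23, and HOXA2, short of the level rule, had 3.25 and 4.69.

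Small nucleolar RNAs, which guide the chemical modification of ribosomal RNA and are often cut from introns, had the highest share of higher features among the 5 classes of gene compared. Of 164 past the level rule 43 were at least 2-fold higher and 1, SNORD49A, lower, with a median of 0.59 and 132 above 0. The backgrounds over all features past the rule were 1.65% higher and 1.33% lower. SNORD34 had 5.20, 4.05, 7.39 and 6.90. SNORD89 had 6.53, 6.83, 8.54 and 9.78, and SNORD110 had 6.81, 6.29, 8.64 and 8.96. All 3 were higher in both 21-day arrays. The median of the class was -0.48 for the 24-hour crizotinib minus the 24-hour vehicle array and 0.01 for the 21-day crizotinib minus the 21-day control array. MicroRNA precursors lay the other way, with 11 of 217 lower and 1 higher and a median of -0.28. Whether these probe sets read the mature small RNA or its precursor or host intron was not tested. Protein-coding genes, 10730 past the level rule, had 138 higher and 134 lower.

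The crizotinib arrays gave a second 21-day minus 24-hour difference that shared no array with the first, although dose and duration differ in it together. Of the 195 features higher in the drug-free pair 113 (57.9%) were also at least 2-fold higher there, against a background of 5.46%, 2 were at least 2-fold lower and 179 were above 0. Of the 157 lower features 79 (50.3%) were at least 2-fold lower there, against a background of 5.96%, 3 were higher and 137 were below 0. Over the 11450 features past the level rule in both pairs Pearson's r between the 2 differences was 0.53 and Spearman's rho 0.44, as a description across genes of 4 arrays.

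**Figure D4:**
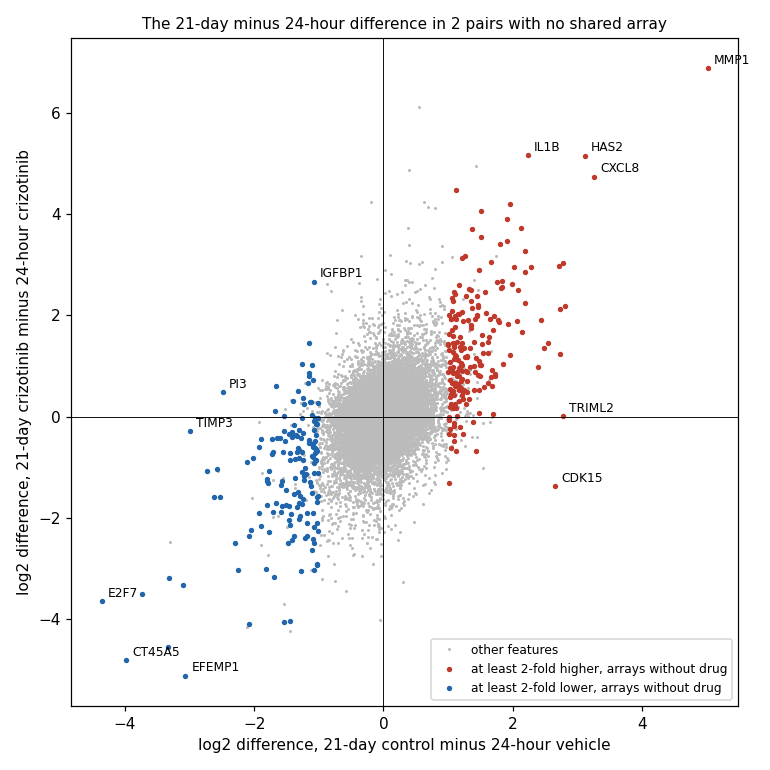
The log2 difference of the drug-free pair (horizontal axis) is plotted against that of the crizotinib pair (vertical axis), both 21-day minus 24-hour, for the named features, with those at least 2-fold apart in the drug-free pair coloured. MMP1 is at the upper right (5.02 and 6.88), E2F7, CT45A5 and EFEMP1 are at the lower left, CDK15 is at the lower right and IGFBP1 at the upper left.

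A linear model of culture duration plus crizotinib over all 4 arrays gave the only test the design allows. It has 1 residual degree of freedom and takes the drug difference to be equal at both durations. Of 11364 features with a mean level at or above 4.96, limma called 3 higher (0.0264%) and 4 lower (0.0352%) at 21 days after Benjamini-Hochberg adjustment. MMP1 rose by 5.95 (SE 0.45, limma adjusted p = 0.0415), EMILIN2 by 2.91 (SE 0.20, limma adjusted p = 0.0358) and ESM1 by 2.85 (SE 0.20, limma adjusted p = 0.0358). E2F7 fell by 4.0 (SE 0.25), APOH fell by 3.62 (SE 0.20), DCC fell by 3.24 (SE 0.20) and ZNF883 fell by 3.21 (SE 0.20), each with a limma adjusted p of 0.0272. Each of the 7 had the same direction in both pairs. The residual of this fit is the disagreement of the pairs, so the shared direction follows from the call and adds no support. The SEs come after eBayes, which pools variance over the features. They are not a spread measured between cultures for these genes. MMP1, ESM1, APOH, DCC and ZNF883 were below the olfactory bound in both arrays of 1 duration and E2F7 in the 21-day control, so they passed the mean level filter through the duration in which they were high, and their fitted sizes are no exact folds. EMILIN2 was above the bound in all 4 arrays. CXCL8 did not pass, with an estimate of 4.0 and a limma adjusted p of 0.0655, nor did SCD, at -2.63 and 0.0655. With all named features kept, limma called none in either direction, and 2413 features had an unadjusted p under 0.05.

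The differences also had a pattern along the chromosomes. It was described over 11362 features whose mean over the 4 arrays was at or above 4.96, of which 45.8% were below 0, with a median of 0.03. Chromosome 22 had the lowest median, -0.35 over 291 genes, and 91.4% of them were below 0. In the crizotinib pair its median was -0.29, with 73.2% below 0.

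Chromosome 18 had a median of -0.27 over 166 genes. Divided into 8 parts of equal gene number, its last 4 parts had a median of -0.54 with 88.0% of 83 genes below 0, part 4 had -0.24 over 20 genes, and its first 3 parts had 0.01 over 63 genes. In the crizotinib pair these had -0.55, -0.28 and -0.23. Chromosome 13 had 0.23 in its first 4 parts and -0.30 in its last 4, with 95 genes in each, and 0.00 and -0.28 in the crizotinib pair. On the higher side, the last 4 parts of chromosome 11 had 0.36 over 338 genes (0.23 in the crizotinib pair) and those of chromosome 6 had 0.26 over 282 genes (0.09 in the crizotinib pair).

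Chromosomes 10, 4 and 17 had medians of -0.20, -0.15 and -0.12, and chromosome 16 had 0.18. Between arrays of the same duration the medians of whole chromosomes ran from -0.09 to 0.10 for 24-hour crizotinib minus vehicle and from -0.09 to 0.06 for 21-day crizotinib minus control. Over all 184 parts the medians ran from -0.70 to 0.43 in the drug-free pair and from -0.65 to 0.41 in the crizotinib pair. Between arrays of the same duration they ran from -0.47 to 0.31 at 24 hours and from -0.32 to 0.22 at 21 days, and over the 176 parts of 20 or more genes from -0.19 to 0.31 and from -0.26 to 0.16. For the last 4 parts of chromosome 18 the medians between arrays of the same duration were -0.04 at 24 hours and -0.02 at 21 days. DCC lies on chromosome 18 and MMP1 on chromosome 11, where the shifts of -0.54 and 0.36 stand beside differences of -3.31 for DCC and 5.02 for MMP1. The labels give no passage or stock for the cultures, and the source of these shifts was not tested. With the median of each gene's part of its chromosome taken off, a step added after the pattern was seen, 165 features were higher and 154 lower, and the hypoxia median went from -0.42 to -0.18.

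**Figure D5:**
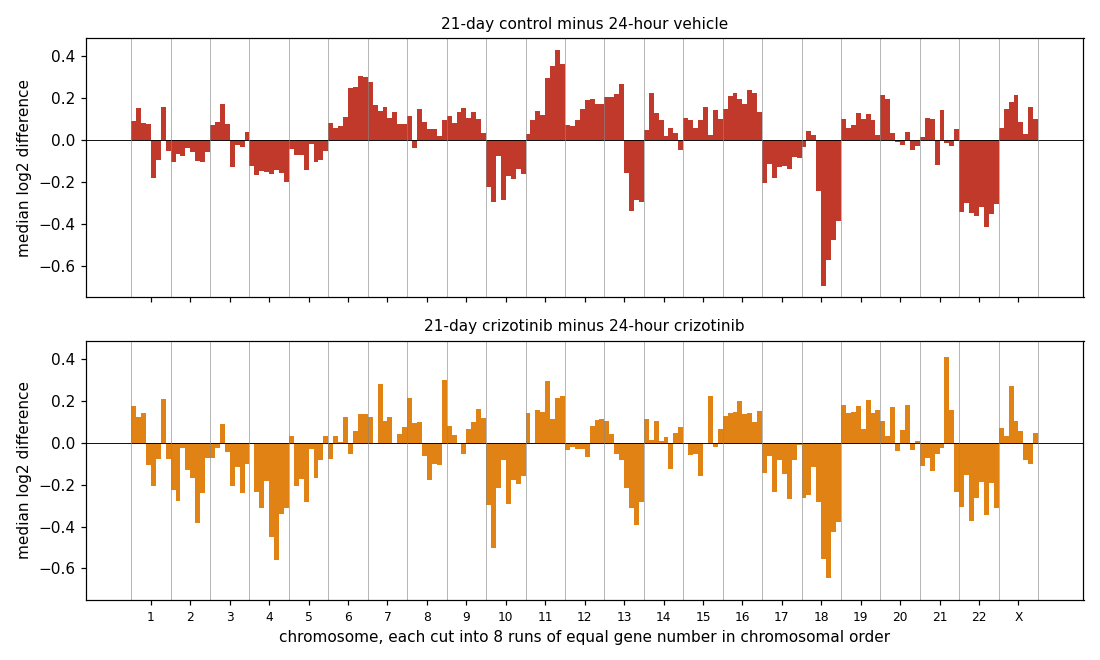
Bars give the median log2 difference, 21-day minus 24-hour, in each of 8 runs of equal gene number along every chromosome, in the drug-free pair (upper panel) and the crizotinib pair (lower panel). Bars point down along chromosome 22 and in the last 4 runs of chromosomes 13 and 18 in both panels, and up in the last 4 runs of chromosome 11.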

How the data were processed

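The labels describe total RNA labelled with the WT Plus kit on 4 Affymetrix arrays, 1 for each condition. The deposited values are log2 expression after RMA, made by the authors with affy 1.36.1 in R 2.15.1, per the submitters' processing notes. RMA sets all arrays to 1 distribution, so differences are relative to the bulk of the genes. Scanner files were not used here, so no detection calls were made. Symbols came from the platform annotation updated through RefSeq, and 1328 features without a symbol were left out. XIST and Y-linked genes are neither named nor plotted.

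Differences were taken feature by feature with Python 3.11.15, pandas 2.3.3 and numpy 2.4.6, without a pseudocount. A call needed a 2-fold difference and a higher array at or above 4.96. Depth does not apply to arrays, and their number limits the precision. The linear model used limma 3.58.1 in R 4.3.3 with eBayes and Benjamini-Hochberg adjustment at 0.05, and was tested on simulated data. The genes named were the 15 highest and 15 lowest differences, the 20 highest means, list members at least 2-fold apart or at either end of their list, 8 fixed genes and the 8 smallest limma p. GFAP, SOX2, OLIG2, MINAR1, DANCR, CSRP2, NAV3, ZDHHC17, the small nucleolar RNAs, the genes named by array pattern, and IGFBP1, S1PR3 and TREM1 fall outside this rule and were chosen after their values were seen. The lower bounds on fold and the ranges over chromosome parts were added later too. The 30 gene lists and 13 marker lists, and the choice of the comparison, were made with earlier results of these data known. The counts by array pattern, the promoter motifs, the parts of chromosomes and the removal of chromosome medians were chosen after seeing the data. Alternatives were other level and size rules, quantile normalization, median centring, a loess trend, all features, and other limma settings.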

Additional observations from a re-analysis of the deposited data

Results flagged for a closer look

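5 named genes were at least 2-fold apart as measured in opposite directions in the drug-free pair and in the crizotinib pair, 21-day minus 24-hour. The difference between the pairs was not tested, since each has 1 array per condition. CDK15, a cyclin-dependent kinase gene, was at 2.66 in the drug-free pair and -1.37 in the crizotinib pair. Its 24-hour vehicle value of 2.90 and its 21-day crizotinib value of 3.64 were below the olfactory bound. Taken against the bound, neither of its differences reaches 2-fold. ID3, an inhibitor of helix-loop-helix factors, was at 1.02 and -1.32, with 6.54, 7.73, 7.56 and 6.41 in the 4 arrays. IGFBP1, an insulin-like growth factor binding protein, was at -1.08 and 2.66, with 6.72, 6.67, 5.64 and 9.33. S1PR3, a sphingosine 1-phosphate receptor, was at -1.25 and 1.03, with 8.52, 7.88, 7.27 and 8.91. TREM1, a receptor of myeloid cells, was at -1.11 and 1.01, with 5.51, 5.34, 4.40 and 6.35. Its 21-day control value was below the bound of 4.51, and against that bound its drug-free difference falls just short of 2-fold. In the last 3 genes the 21-day crizotinib array was the highest and the 21-day control the lowest.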

How the results depend on the processing

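The number of features called depended on the rule, and no direction was reversed. With both arrays at or above 4.96 the counts were 121 higher and 81 lower, at 1.5-fold 713 and 632, and at 3-fold 53 and 43. At 1.5-fold 364 (51.1%) of the higher and 306 (48.4%) of the lower features had the same call in the crizotinib pair. Without the filter on mean level limma called 0 higher and 0 lower features, with a smallest adjusted p of 0.1361, and with a trend 3 and 5. The other 58 recomputed counts and medians of the main comparisons kept their direction, with counts within 1.5 times. Quantile normalization moved no named gene by more than 0.17 and a loess trend none by more than 0.11. Signal near the olfactory bound limits what can be said of low genes: at the 99th percentile of those genes 11060 features were below it in both drug-free arrays and 10413 above, and at the median of all values 10634 and 10824. No paired analysis was possible because each condition has 1 array. Differences of single genes in the drug-free pair have no replicate error.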
